A study of Homo sapiens with 5 samples.

Results

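The genes described here are the 200 human genes with a ZNF number as their symbol that had the highest mean FPKM in HaCaT keratinocytes, out of 533 such rows and 27933 rows in all. A member's symbol is ZNF, digits and at most 1 further letter, and its rank was set by its mean over all 5 libraries. The members were thus chosen by measured level, in a mean that holds 3 knockdown libraries and 2 controls. Total RNA was sequenced in 3 libraries of cells labelled AHNAK knockdown and in 2 control libraries labelled NC. The libraries all came from HaCaT, an established human keratinocyte line that grows without limit, kept in DMEM with fetal bovine serum. The knockdown columns are named si. The labels give neither the sequence of an interfering RNA, nor what NC cells received, nor the time after treatment, and the series' design text calls the cells a knockout. They also do not say whether replicates were separate cultures, so p-values measure the spread between these libraries, which may be technical.

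The member of lowest mean was ZNF823, at 2.49 FPKM (fragments counted per transcript length and library size), and the first symbol left out was ZNF564, at 2.47 FPKM. All 200 members passed the filter on low values, a mean of at least 1 FPKM, which 12196 genes passed. Since mean level chose the members, their levels are a description. The choice also favours genes higher in knockdown near its lower end. In 16 members, 11 of them with a KRAB box, the control mean alone was under the level of ZNF823, and in 1 member the knockdown mean was. ZNF440, ZNF468, ZNF823, ZNF140 and ZNF397 are among the 16, so their differences are in part what let them in.

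Proteins of this kind carry zinc fingers, short loops in which cysteines and histidines hold a zinc ion, most often repeated in an array that binds DNA. Many also carry a KRAB box at the start of the protein, which recruits TRIM28 and through it the histone methyltransferase SETDB1 and HP1 proteins, and so silences retroelements and other targets. KRAB zinc finger genes have multiplied by duplication and lie in clusters, most of them on chromosome 19. A minority of ZNF symbols name proteins of another type, which act in translation, ribosome assembly, the spindle or the cytoskeleton.

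The label of the libraries was checked on AHNAK itself, a very large scaffold protein. It stood at 114, 69.6 and 115 FPKM in knockdown replicates 1, 2 and 3, against 205 and 242 FPKM in control replicates 1 and 2. All 3 knockdown libraries lay below both controls, with a log2 difference of -1.19 (SE 0.24; limma, Benjamini-Hochberg adjusted p = 0.372). Keratinocyte markers were high in every library, with KRT14 between 1180 and 3070 FPKM. Low-level transcripts shared value steps within set A (knockdown replicates 1 and 3 with control replicate 1) and within set B (knockdown replicate 2 with control replicate 2). The commonest ratio between 2 libraries held for 17.0% to 25.1% of low genes within a set and for at most 3.96% across sets. Differences are therefore also given within each set, and no library is in both. Deviations of a library from the mean of the 5 were correlated over genes with transcript GC content at a Spearman's rho of 0.602 in knockdown replicate 1 and -0.547 in knockdown replicate 3, with 0.184 and 0.123 in the controls.

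No member differed between knockdown and control past the threshold. Limma called 0 of 200 members at an adjusted p under 0.05 (smallest 0.372), and 0% of all 12196 genes. At an unadjusted p under 0.05 there were 20 members, 14 higher and 6 lower, which is 10.0% of them beside 11.7% of all genes. That share lies near the background and is no result about these genes. Log2 differences were taken as knockdown over control after adding 0.5 FPKM to every value; they ran from -0.65 to 0.75 over the members, and the scale understates changes of low genes. In bulk RNA, fewer cells of a type and less RNA per cell cannot be told apart.

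The direction was uneven. Of the members 115 had a log2 difference above 0 and 85 below, 57.5% higher beside 51.3% of all genes. In 54 members (27.0%) all 3 knockdown libraries lay above both controls, beside 16.2% of all genes. In 22 members (11.0%) all 3 lay below, beside 15.8%. The median log2 difference was 0.05 for members and 0.01 for all genes. It was -0.01 within set A and 0.17 within set B, where the medians of all genes were -0.01 and 0.00. With each library rescaled to the same FPKM sum, 100 of 200 members were higher and the median was 0.00.

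Of the members, 74 hold a KRAB box by a pattern searched in the GENCODE protein, and most of these were higher in knockdown. The search found no box in 123 members, and 3 members, ZNF271P, ZNF252P and ZNF767P, are annotated as pseudogenes with no protein. It misses some boxes, such as those known in ZNF202 and ZNF263, so a miss does not show that a protein lacks one. In the KRAB group 58 of 74 members (78.4%) had a log2 difference above 0, against 54 of 123 (43.9%) in the others. All knockdown libraries lay above both controls in 33 KRAB members (44.6%), beside 16.2% of all genes. They lay below both in 1, ZNF584, beside 15.8% of all genes. Among members without the pattern these counts were 18 (14.6%) and 21 (17.1%). The median log2 difference was 0.16 in the KRAB group and -0.02 in the others. At an unadjusted p under 0.05 the KRAB group held 6 members, all higher, or 8.11%, so single members did not stand out more often than genes at large.

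**Figure D1:**
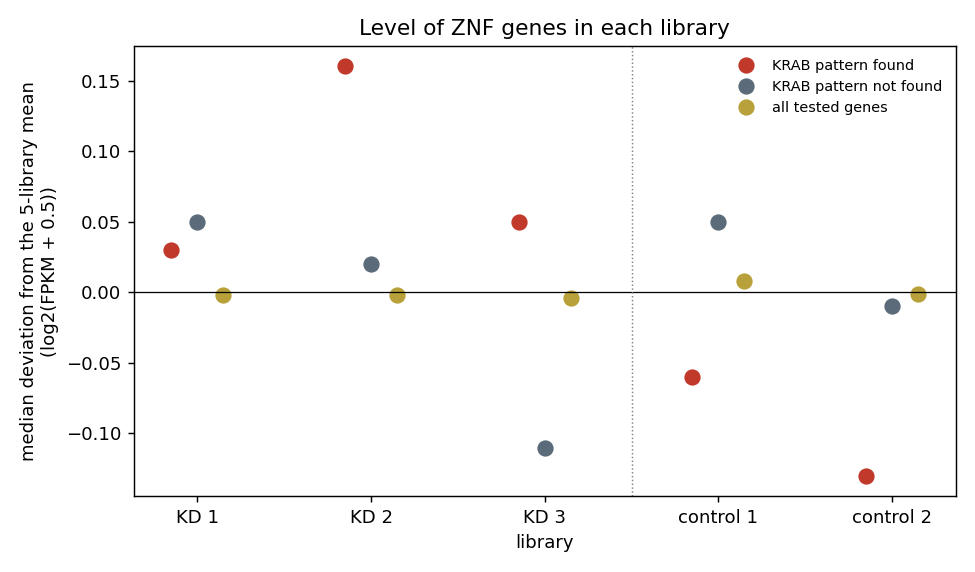
Median deviation of each library from the mean of the 5 libraries, in log2(FPKM + 0.5), for the 74 ZNF genes with a KRAB pattern, the 123 without and all 12196 tested genes; each point is 1 library. The KRAB genes lay at 0.03, 0.16 and 0.05 in knockdown replicates 1, 2 and 3 and at -0.06 and -0.13 in control replicates 1 and 2.

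By library, the KRAB median deviated by 0.03, 0.16 and 0.05 in knockdown replicates 1, 2 and 3, and by -0.06 and -0.13 in control replicates 1 and 2. Every knockdown library was above both controls, and knockdown replicate 2 and control replicate 2, the pair of set B, stood farthest apart. The other members gave 0.05, 0.02 and -0.11 in knockdown and 0.05 and -0.01 in control, with overlap. Within set A the KRAB median was 0.09 and within set B 0.29. In both sets alike 41 KRAB members (55.4%) were higher and 4 (5.4%) lower, beside 27.2% and 28.5% of all genes. Over 20 ways of processing that kept all 74, between 48 and 65 of them were higher, with medians of 0.09 to 0.29. The lowest count was that within set A. With the 200 genes chosen instead by their control mean, 53 of 71 KRAB members (74.6%) were higher, 27 without overlap (38.0%), with a median of 0.13, and 55 of 126 others (43.7%). Chosen by the mean of the group means, 56 of 73 KRAB members were higher and 55 of 124 others.

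**Figure D2:**
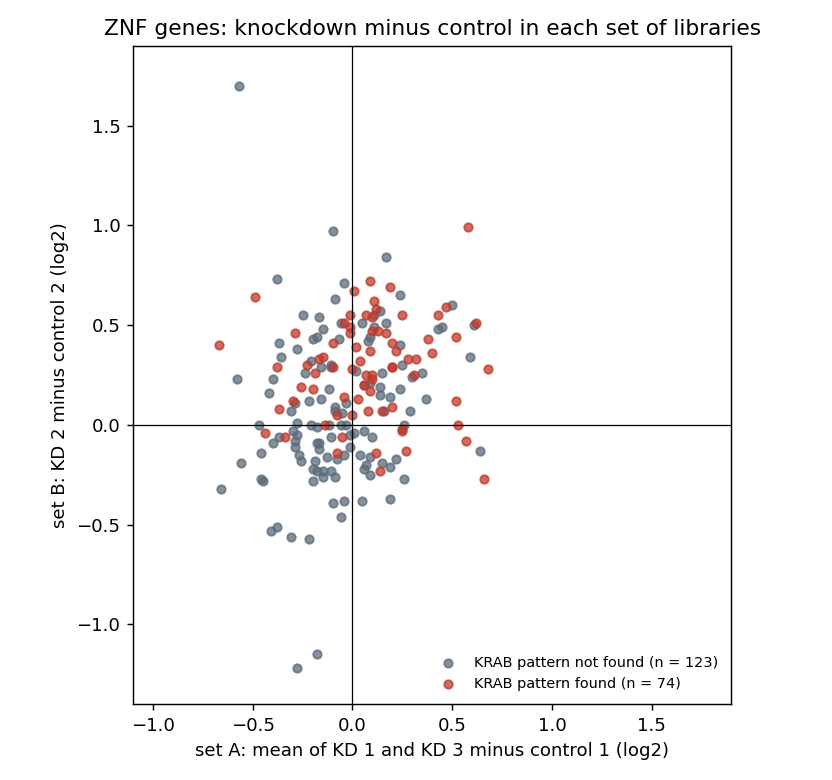
Log2 difference of each ZNF gene, knockdown minus control, within set A (horizontal, knockdown replicates 1 and 3 against control replicate 1) and within set B (vertical, knockdown replicate 2 against control replicate 2), coloured by the KRAB pattern. Of 74 KRAB genes, 41 lie above 0 on both axes and 4 below 0 on both.

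Transcript GC content moved with this result. KRAB transcripts had a median GC content of 45%, against 53.2% for the other members. Of the 56 KRAB members under 50% GC, 51 (91.1%) were higher, 33 without overlap and 0 lower without overlap, with a median of 0.24. Every KRAB member with a control mean under the level of ZNF823 is among these 56. The choice of members thus favours these counts and this median. Of all genes under 50% GC, 17.7% were higher and 14% lower without overlap. The 47 other members under 50% GC had 26 higher (55.3%) and a median of 0.04, and all genes under 50% GC had 57.8% higher and a median of 0.04. At 50% GC or more, 7 of 18 KRAB members were higher, 0 without overlap, with a median of -0.03. Of all genes at 50% GC or more, 43.6% were higher, and 14% were higher without overlap. After a loess correction that removed, library by library, the trends with GC content and transcript length, the KRAB median was 0.16 and that of the other members 0.02. Under 50% GC the corrected medians were 0.20 with the KRAB pattern and -0.02 without it. At 50% GC or more they were 0.07 and 0.03, and there 38.9% of KRAB members and 36.8% of the 76 others were higher, so the larger share among KRAB members was seen under 50% GC.

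**Figure D3:**
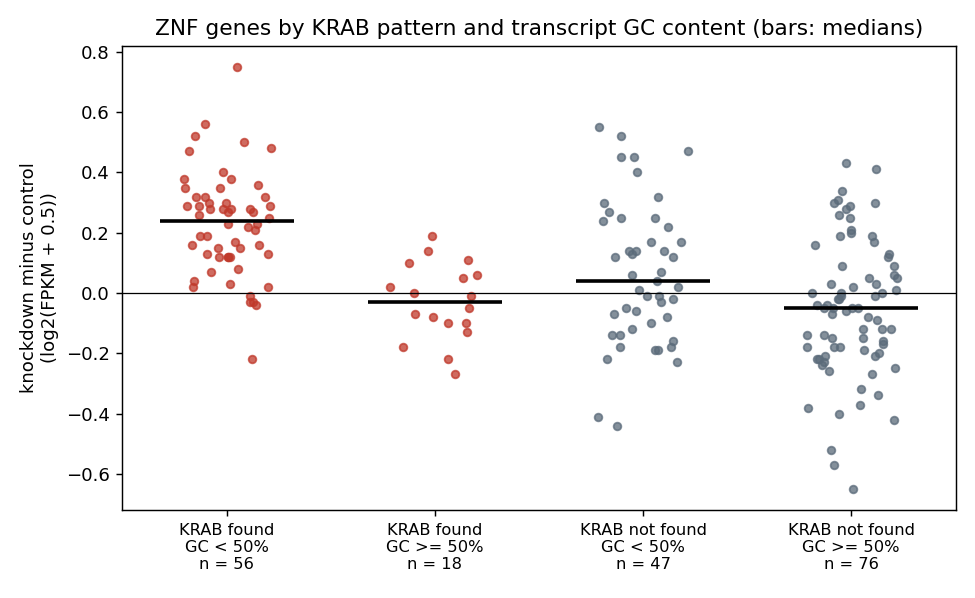
Log2 difference, knockdown minus control, of 197 ZNF genes by KRAB pattern and transcript GC content, each point 1 gene and each bar a median. The 56 KRAB genes under 50% GC lie highest, with a median of 0.24. They include every KRAB gene with a control mean under the lowest member mean, so the choice of members favours this median.

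Level moved with it as well, since the median KRAB member had 3.82 FPKM and the median other member 6.56 FPKM. Among the 67 members of lowest FPKM, 32 of 38 KRAB members and 15 of 28 others were higher. The 66 in the middle gave 18 of 25 and 15 of 39, and the 67 highest 8 of 11 and 24 of 56. Each level class held a larger share of higher genes among the KRAB members. The classes follow the same mean that chose the members. All 16 members with a control mean under the level of ZNF823 lie in the lowest class, so its counts are in part set by the choice. In the highest class the KRAB median was 0.04 (set A -0.04, set B 0.26) and that of the others -0.03 (set A -0.04, set B -0.01). Marker levels also differed between the groups. The summed level of the 6 keratinocyte markers was 3200 to 4670 FPKM in knockdown and 4910 and 6230 FPKM in control. KRT14, KRT17, TP63 and ITGB4 were lower in every knockdown library than in both controls. KRT5 overlapped (1540 to 1970 FPKM in knockdown, 1800 and 2270 FPKM in control), as did DSG3 (57.9 to 60.4 FPKM against 59.6 and 69.7 FPKM). The 6 fibroblast markers summed to 6.12 to 10.2 FPKM in knockdown and to 3.30 and 5.02 FPKM in control, mostly DCN, COL1A1 and COL3A1. These did not move alike, since COL1A1 was lower in every knockdown library (1.28 to 1.78 FPKM) than in the controls (1.94 and 2.47 FPKM). Of this list COL1A2 was listed at 0 in 3 libraries, PDGFRB in 2, and DCN and LUM in control replicate 2. Of the 4 melanocyte markers TYR was listed at 0 in every library, and the 4 immune markers summed to at most 1.10 FPKM. The 3 endothelial markers summed to 2.06 to 2.98 FPKM in knockdown and to 2.97 and 2.08 FPKM in control. The part of these markers in the result was not tested.

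ZNF440 had the largest difference of all members, and carries a KRAB box and 10 fingers. It lies on chromosome 19, 11814284 to 11835201, plus strand (GRCh38, ENSG00000171295.12). Its level was 3.43, 4.44 and 3.92 FPKM in knockdown replicates 1, 2 and 3, against 2.28 and 1.98 FPKM in control replicates 1 and 2. Every knockdown library was above both controls, with means of 3.93 ± 0.51 (SD, n = 3) and 2.13 ± 0.21 FPKM (SD, n = 2). Log2 knockdown over control was 0.75 (95% confidence interval 0.37 to 1.12, SE 0.16; limma adjusted p = 0.372), and stood at 0.58 within set A and 0.99 within set B.

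ZNF227, a KRAB protein with 18 fingers, lies in another cluster of the same chromosome, at 44207547 to 44237268, plus strand (GRCh38, ENSG00000131115.15). It had 4.55, 4.74 and 4.70 FPKM in the knockdown libraries, against 2.85 and 3.18 FPKM in the controls. The knockdown values lay close together and clear of both controls (log2 difference 0.56, SE 0.13; limma adjusted p = 0.377). ZNF468, also of the KRAB type, had 3.07, 3.24 and 3.03 FPKM in knockdown and 2.06 and 1.99 FPKM in control (0.52, SE 0.13). ZNF823, the last member by rank, had 2.73, 3.04 and 2.85 FPKM in knockdown and 1.94 and 1.92 FPKM in control (0.47, SE 0.14). Neither gene overlapped between groups, and their limma adjusted p were 0.383 and 0.387.

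Of the 8 members without overlap and of smallest p on the higher side, 3 had no KRAB pattern and 1 is a pseudogene. ZNF664, on chromosome 12 (123971845 to 124015439, plus strand, GRCh38, ENSG00000179195.15), was the most abundant of the 8. It stood at 28.6, 30.6 and 32.05 FPKM in knockdown, against 19.7 and 21.5 FPKM in control, with no overlap (log2 difference 0.55, SE 0.13; limma adjusted p = 0.375). ZNF397, a SCAN domain protein, had 3.38, 4.05 and 3.75 FPKM in knockdown and 2.37 and 2.495 FPKM in control. Its control mean of 2.43 FPKM is under the lowest member mean, so its difference is in part what let it in. ZNF271P, a pseudogene on chromosome 18 near ZNF397, had 3.57, 3.72 and 4.55 FPKM in knockdown and 2.30 and 2.77 FPKM in control. ZNF134 was at 3.99, 3.98 and 3.44 FPKM in knockdown and at 2.59 and 2.69 FPKM in control. These 3 differed by 0.52, 0.55 and 0.45 on the log2 scale, each with a limma adjusted p of 0.387.

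**Figure D4:**
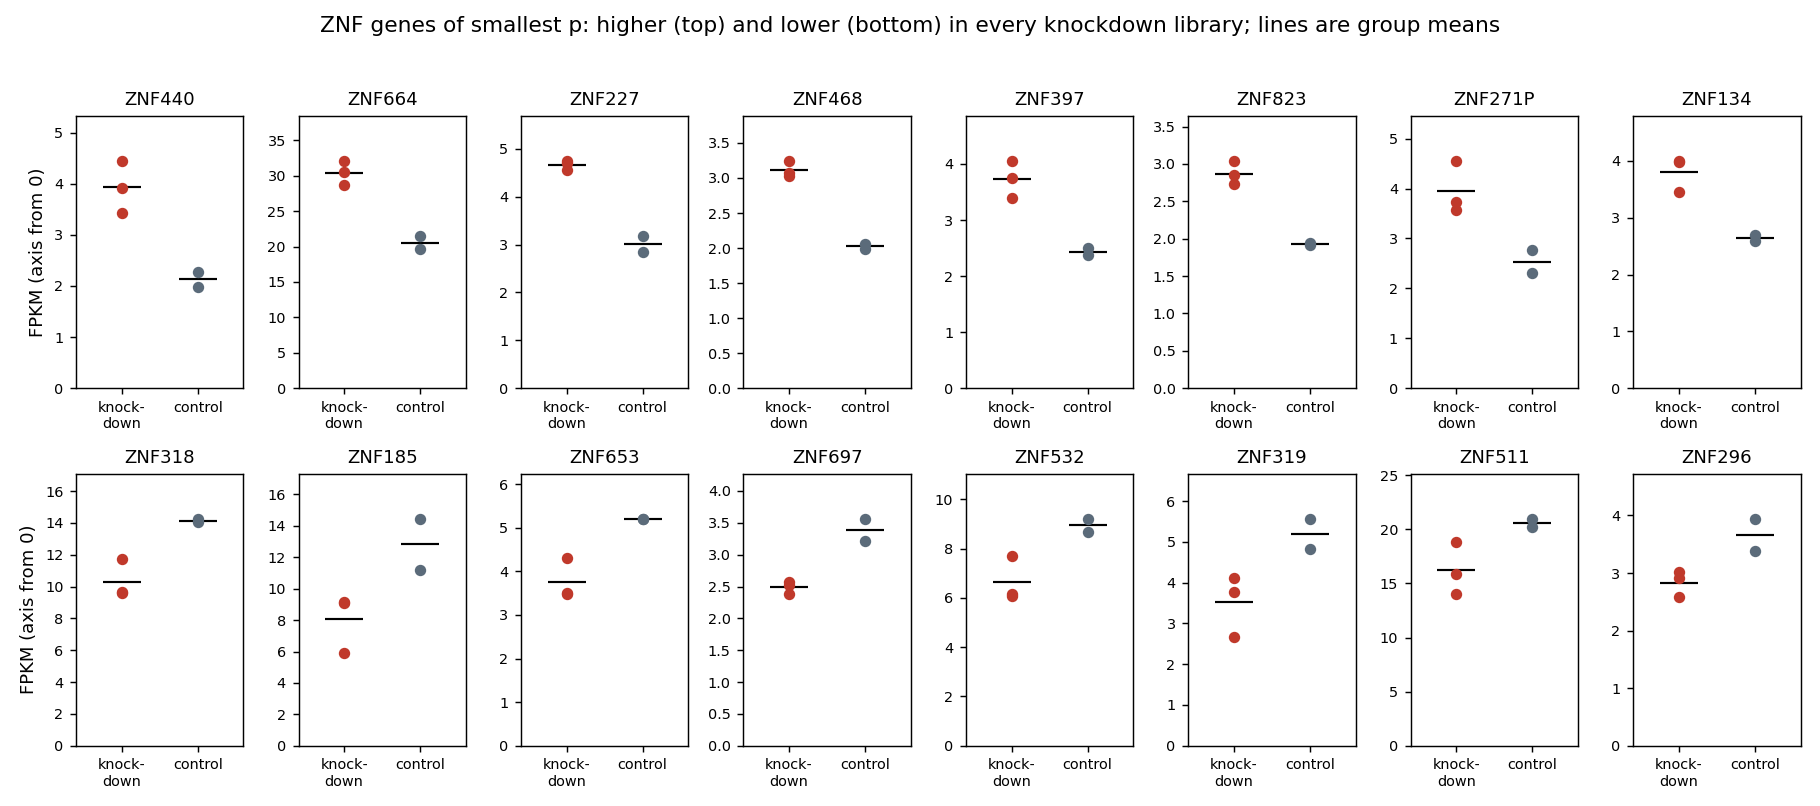
FPKM in each library for 8 members whose knockdown libraries all lay above the controls (top) and 8 whose knockdown libraries all lay below them (bottom), in each case those of smallest p; points are libraries, lines are group means, and each vertical axis starts at 0. ZNF440 shows knockdown at 3.43 to 4.44 FPKM above controls at 1.98 and 2.28 FPKM, and ZNF318 shows knockdown at 9.59 to 11.7 FPKM below controls at 14.03 and 14.3 FPKM. The genes were picked for not overlapping.

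Among the 22 members lower in every knockdown library, the KRAB pattern was found in 1. ZNF318, known in mouse for its part in IgD expression in B cells, lies on chromosome 6, 43307134 to 43369478, minus strand (GRCh38, ENSG00000171467.15). It was at 11.7, 9.59 and 9.64 FPKM in knockdown, against 14.3 and 14.03 FPKM in control. Both controls nearly coincided and all knockdown libraries lay under them (log2 difference -0.44, SE 0.14; limma adjusted p = 0.389). ZNF185, a LIM domain protein of the actin cytoskeleton with 0 fingers of this kind, had 9.15, 5.91 and 9.10 FPKM in knockdown and 11.2 and 14.4 FPKM in control. Its log2 difference of -0.65 (SE 0.22; limma adjusted p = 0.394) was the lowest of all members, at -0.28 within set A but -1.22 within set B. ZNF532, which forms a complex with ZMYND8, ZNF592 and ZNF687, had 7.69, 6.09 and 6.16 FPKM in knockdown and 8.68 and 9.20 FPKM in control (-0.41; limma adjusted p = 0.395). The other 5 of smallest p, ZNF653, ZNF697, ZNF319, ZNF511 and ZNF296, differed by -0.52 (ZNF319) to -0.32 (ZNF296).

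Promoters are printed for 3 of these genes, the KRAB members ZNF440 and ZNF227 and the lower member ZNF318, because they have the smallest p of their kind. Each runs from 250 bases before to 50 bases after the RefSeq start, on the gene's strand (GRCh38.p14): chr19:11814023-11814322 on the plus strand for ZNF440, chr19:44212282-44212581 on the plus strand for ZNF227, and chr6:43369598-43369897 on the minus strand for ZNF318. Capitals mark matches, on either strand, to the GC box GGGCGG, the ETS core CCGGAAG, the first letters ACTACAA of the ZNF143 site, the E-box CACGTG, the TATA box TATAAA, or the NRF1 and YY1 sites. No letter belongs to 2 matches.
ZNF440: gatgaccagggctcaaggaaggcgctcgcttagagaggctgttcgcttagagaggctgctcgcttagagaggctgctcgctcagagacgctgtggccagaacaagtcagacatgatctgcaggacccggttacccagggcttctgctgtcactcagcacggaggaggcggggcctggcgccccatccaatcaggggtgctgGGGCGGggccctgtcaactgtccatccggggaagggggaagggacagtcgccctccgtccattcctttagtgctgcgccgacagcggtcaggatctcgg
ZNF227: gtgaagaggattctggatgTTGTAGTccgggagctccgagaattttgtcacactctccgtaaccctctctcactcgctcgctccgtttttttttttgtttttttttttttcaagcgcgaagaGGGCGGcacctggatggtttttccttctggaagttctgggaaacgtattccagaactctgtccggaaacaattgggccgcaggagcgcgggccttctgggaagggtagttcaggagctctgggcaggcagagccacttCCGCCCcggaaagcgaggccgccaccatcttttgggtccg
ZNF318: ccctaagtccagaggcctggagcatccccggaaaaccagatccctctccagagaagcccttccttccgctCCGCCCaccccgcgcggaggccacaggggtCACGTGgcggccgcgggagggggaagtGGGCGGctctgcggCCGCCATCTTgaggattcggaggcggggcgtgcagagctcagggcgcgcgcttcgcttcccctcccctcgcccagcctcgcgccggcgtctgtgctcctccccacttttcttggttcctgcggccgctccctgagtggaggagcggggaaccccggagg
The ZNF440 window holds 1 match, to the GC box. That of ZNF227 holds 3, to the GC box on both strands and to the start of the ZNF143 site, and that of ZNF318 holds 4, to the GC box on both strands, the E-box and the YY1 site.

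Promoter windows were matched for 169 of the 200 members. They are set beside all 27305 windows, which hold genes whatever their level here, while the members were chosen by level. The sets are thus unlike. The ETS core stood in 46.2% of 65 KRAB windows, in 35.6% of 104 windows of members without the pattern and in 10.7% of all 27305 windows. In windows of the 46 matched members that were higher without overlap it stood in 39.1%, close to the 39.6% of all matched members. The GC box was in 64.6% of KRAB windows, 71.2% of the others and 44.6% of all windows, and ACTACAA in 9.23%, 10.6% and 2.95%. Over all windows the E-box stood in 7.43%, the TATA box in 12%, the NRF1 site in 1.36% and the YY1 site in 1.28%, and in members in 8.28%, 2.96%, 2.37% and 2.37%. Median CG dinucleotides per window were 20 in KRAB members, 26 in the other members and 14 over all windows. Such matches are letters in a window and were not tested as binding sites.

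Chromosome 19 holds 60 of the members, and its KRAB genes had a larger median than those elsewhere. On it 31 of 37 KRAB members were higher, 21 without overlap, with a median of 0.23. Elsewhere 27 of 37 were higher, 12 without overlap, with a median of 0.11. These are 56.8% and 32.4% without overlap, beside 16.2% of all genes. Of the 11 KRAB members with a control mean under the level of ZNF823, all but ZNF140 and ZNF354A lie on chromosome 19. The choice of members thus favours a larger median and more genes without overlap there. Median GC content was 43.5% on chromosome 19 and 48.8% elsewhere, and after the GC content and length correction the KRAB medians were 0.20 and 0.11. Of 23 members on chromosome 19 without the pattern, 12 were higher, with a median of 0.01, or 0.13 after the correction.

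Grouping neighbours at most 1 Mb apart gave 6 clusters of 6 or more members. The cluster at 11483427 to 12633840 (GRCh38) had the largest median, 0.36 (set A 0.20, set B 0.55). There the 6 KRAB members ZNF627, ZNF823, ZNF440, ZNF700, ZNF44 and ZNF791 were all higher, and ZNF653, without the pattern, was lower. Of these, ZNF627, ZNF823, ZNF440 and ZNF44 had control means of 2.35, 1.93, 2.13 and 2.26 FPKM, under the lowest member mean of 2.49 FPKM. Their higher knockdown values are in part what let them in, so the choice of members favours this median. In the cluster at 51964343 to 52890375, of 6 KRAB genes from ZNF350 to ZNF468, all 6 were higher (median 0.21, set A 0.19, set B 0.25). Of these 5 were higher without overlap, beside 16.2% of all genes. ZNF28 and ZNF468 in it had control means of 2.21 and 2.02 FPKM, also under the lowest member mean. The cluster near the end of the long arm, 57351307 to 58481230, had 11 of 16 higher (median 0.19, set A 0.00, set B 0.33). In it ZNF551, ZNF552 and ZNF776 had control means under the lowest member mean as well. The 9 members at 55476332 to 56160893, from ZNF628 to ZNF444, include 0 with the KRAB pattern and had a median of 0.05 (set A 0.08, set B 0.11). After the GC content and length correction that median was 0.23, between 0.29 in the cluster of ZNF440 and 0.16 and 0.15 in the clusters of ZNF468 and of ZNF274, so the order of clusters depends on it. The cluster of ZNF227, at 43596392 to 45076588, with 3 KRAB genes among 6, had 4 higher and a median of 0.10 (set A 0.07, set B -0.07). In it 2 members were higher and 2 lower without overlap, beside 16.2% and 15.8% of all genes. That at 7515292 to 9675086, with 5 KRAB genes among 8, had 5 higher and a median of 0.11 (set A 0.00, set B 0.31). These clusters were defined by position alone. Some of their genes are paralogues with similar finger arrays, while others differ, such as ZNF428 with 1 finger and ZNF227 with 18 in the same cluster. How the authors' counting divided reads that fit several genes is not given in the sources used here. Members of 1 cluster can thus not be taken as independent values.

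**Figure D5:**
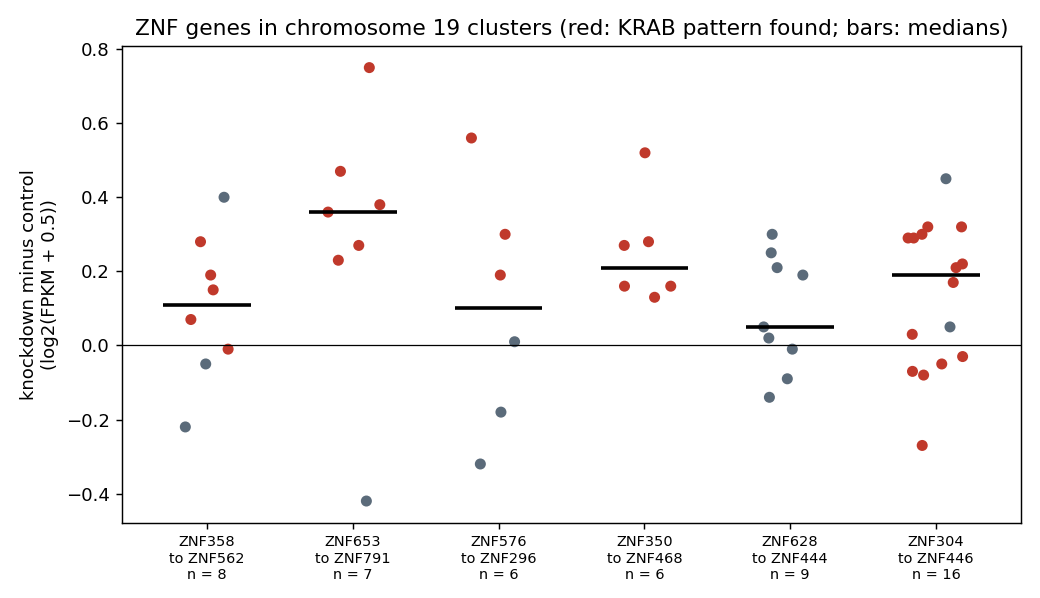
Log2 difference, knockdown minus control, of ZNF genes in the 6 chromosome 19 clusters with 6 or more members, in order along the chromosome; red points carry the KRAB pattern, grey points do not, and bars are medians. The cluster from ZNF653 to ZNF791 has the largest median, 0.36. Its members ZNF627, ZNF823, ZNF440 and ZNF44 had control means under the lowest member mean, so their direction is in part what let them in.

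Members with more fingers had larger medians. The 77 members with 10 or more fingers had a median of 0.12 and 49 higher (63.6%). The 85 with 4 to 9 fingers had 0.05 and 47 higher (55.3%), and the 35 with 0 to 3 fingers -0.01 and 16 higher (45.7%), beside 51.3% of all genes. In the same order the medians were 0.03, -0.04 and -0.06 within set A and 0.23, 0.19 and -0.11 within set B. Median GC content was 46.2%, 51.8% and 52%, and median level 4, 5.14 and 9.96 FPKM. Finger number was not separated from KRAB, GC content, level or the choice of members. That choice favours genes higher in knockdown near its lower end, and the class of most fingers had the lowest median level. Among the 13 members in which a pattern search found a SCAN domain, a dimerisation domain, 8 were higher (median 0.09). In 3 classes of transcript length, from short to long, the medians were 0.05, 0.03 and 0.06.

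Several of the most abundant members act outside gene control, and most of the 10 highest overlapped between groups. ZNF207, a microtubule and kinetochore protein that loads BUB3, was highest. It had 98.5, 101 and 96.8 FPKM in knockdown, against 111 and 101 FPKM in control (log2 difference -0.10, SE 0.12). Its highest knockdown value and lowest control value were nearly equal. ZNF385A, a p53 cofactor that also binds RNA, had 73.2, 63.8 and 61.8 FPKM in knockdown and 58.9 and 74.0 FPKM in control, overlapping (0.00, SE 0.16). ZNF593, a factor of 60S ribosomal subunit maturation, had 58.5, 54.2 and 39.1 FPKM in knockdown and 66.6 and 54.3 FPKM in control (-0.27, SE 0.20; set A -0.47, set B 0.00). The lowest value was that of knockdown replicate 3, which was also lowest for ZNF598.

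ZNF598, the ubiquitin ligase that marks collided ribosomes, was at 33.6, 29.2 and 20.7 FPKM in knockdown and 39.1 and 33.4 FPKM in control (-0.40, SE 0.22; limma adjusted p = 0.516). Its transcript is 65.0% GC, and after the GC content and length correction the difference was -0.25. ZNF622, another 60S maturation factor, had 31.6, 29.9 and 34.6 FPKM in knockdown and 27.5 and 29.8 FPKM in control, a narrow gap (0.16, SE 0.13). ZNF219 had 43.5, 47.6 and 28.5 FPKM in knockdown and 36.1 and 28.95 FPKM in control, with overlap (0.26; set A -0.04, set B 0.71). ZNF488, ZNF768 and ZNF395 differed by -0.06, -0.05 and 0.03.

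Activators and architectural factors did not share a direction. ZNF143, an activator that also takes part in chromatin loops, had 6.68, 5.80 and 5.90 FPKM in knockdown and 7.03 and 7.06 FPKM in control. It was lower in every knockdown library by a small margin (-0.19, SE 0.13; limma adjusted p = 0.593), while its paralogue ZNF76 differed by 0.13. ZNF263 had 10.9, 12.4 and 10.3 FPKM in knockdown and 8.92 and 7.75 FPKM in control, with no overlap (0.41, SE 0.14; limma adjusted p = 0.394). ZNF148 and ZNF281, which bind GC-rich promoters, differed by 0.06 and 0.14. ZNF410, an activator of CHD4, and ZNF131, ZNF24 and ZNF384 differed by 0.12, -0.12, -0.16 and -0.18.

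The same held for members of corepressor complexes. ZNF217, a partner of the KDM1A and CoREST complex that is amplified in breast cancer, had 11.1, 13.5 and 11.4 FPKM in knockdown and 10.8 and 9.36 FPKM in control (0.24, SE 0.15; set A 0.05, set B 0.51). Its groups did not overlap, although knockdown replicate 1 was close to control replicate 1. ZNF592 and ZNF687, the partners of ZNF532, differed by 0.06 and -0.21, and ZNF512B, which binds the NuRD complex, by -0.12. The RNA-linked members ZNF326, ZNF638 and ZNF106 differed by -0.22, -0.18 and -0.06, and ZNF346, which binds double-stranded RNA, by 0.17. ZNF706 and ZNF330 differed by -0.05 and -0.01.

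Of the KRAB repressors named for their role, ZNF140 had 2.15, 2.69 and 4.09 FPKM in knockdown and 1.68 and 2.12 FPKM in control. The groups did not overlap, but knockdown replicate 1 almost met control replicate 2 (0.50, SE 0.25; limma adjusted p = 0.480). ZNF274, which binds the 3′ ends of ZNF genes and brings SETDB1 there, had 7.95, 8.11 and 8.78 FPKM in knockdown and 8.70 and 8.50 FPKM in control, with overlap (-0.05, SE 0.12). ZNF202 and ZNF268 differed by 0.12 and 0.08. ZNF91, ZNF93, ZNF10, ZNF224, ZNF331 and ZNF382 ranked below the 200.

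Set A and set B went opposite ways in 78 of the 200 members, beside 5399 of all 12196 genes. The 4 members farthest apart were ZNF121, ZNF783, ZNF496 and ZNF516. ZNF121 had 4.22, 8.66 and 4.09 FPKM in knockdown replicates 1, 2 and 3 and 6.42 and 2.32 FPKM in control replicates 1 and 2, a difference of -0.57 within set A but 1.70 within set B. Knockdown replicate 2 was the highest library and control replicate 2 the lowest, and the pooled difference was 0.40 (SE 0.44). ZNF516 gave -0.10 and 0.97, ZNF496 -0.38 and 0.73, and ZNF783 -0.49 and 0.64.

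A list of corepressors and heterochromatin proteins, some of them partners of KRAB proteins and others of zinc finger proteins without KRAB, gave 0 of 36 tested genes past the threshold in limma. At an unadjusted p under 0.05 were 5, 2 higher and 3 lower, or 13.9% beside 11.7% of all genes, a share near the background. The median was 0.00, with 16 higher and 20 lower. Without overlap 7 were higher (19.4%) and 10 lower (27.8%), beside 16.2% and 15.8% of all genes. The largest difference in the list was that of UHRF1, lower without overlap (-0.68, SE 0.30; limma adjusted p = 0.444). TRIM28, the KRAB corepressor, had 172, 160 and 114 FPKM in knockdown and 166 and 139 FPKM in control, overlapping (-0.06, SE 0.21). SETDB1 had 13.3, 13.7 and 12.03 FPKM in knockdown and 13.4 and 12.6 FPKM in control (0.00, SE 0.13). CBX5, an HP1 protein, lay between 19.6 and 20.7 FPKM in all libraries, and the other HP1 genes CBX1 and CBX3 differed by 0.25 and 0.00. CBX3 varied most, from 60.3 to 158 FPKM within knockdown. Smallest p in the list were HDAC1, a histone deacetylase, KDM1A, a histone demethylase, and ZMYND8. HDAC1 had 100, 123 and 125 FPKM in knockdown and 77.2 and 78.4 FPKM in control, with no overlap (0.57, SE 0.14; limma adjusted p = 0.383). ZMYND8 differed by 0.35 and KDM1A by -0.58.

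Genes outside the 200 show where the members stand. Of 118 tested ZNF symbols ranked below them, 95 were higher (median 0.14), among them 79 of 92 with the KRAB pattern (median 0.15) and 16 of 26 without it (median 0.12). ZSCAN and ZKSCAN genes had 15 of 18 higher (median 0.16; set A 0.07, set B 0.27) and ZFP genes 7 of 10 (median 0.11). By contrast ZBTB genes, with a BTB domain in place of KRAB, had 16 of 34 higher (median -0.02), and KLF and SP genes 6 of 20 (median -0.11). These are counts beside the 51.3% of all genes, without a test of the difference between families. The families also differed in level, with medians of 1.93 FPKM for ZSCAN and ZKSCAN, 8.3 for ZFP, 5.62 for ZBTB and 11.3 for KLF and SP genes.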

How the data were processed

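The authors deposited 1 table of FPKM values, holding a row for each symbol and a column for each of the 5 libraries. HISAT2 2.0.1 and StringTie 2.0.6 were used per the submitters' processing notes, and GRCh38 and mm9 are named without a role. Neither the annotation nor the strand setting is given in those notes, the labels or the file. FPKM carries no read totals, so depth is unknown; column sums ran from 374214.8 to 420540.9, and no count test was run. Groups and replicate numbers came from the labels.

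Genes averaging 1 FPKM or more were fitted as log2(FPKM + 0.5) with limma 3.58.1 in R 4.3.3 (lmFit, eBayes with an intensity trend), knockdown minus control with no covariate, two-sided, Benjamini-Hochberg adjusted over all 12196 genes, threshold 0.05. The step was tested on simulated data. An exact permutation test of 3 against 2 libraries cannot go below 0.1 and was not used. Members and lists were chosen with earlier results of these data known, so no test over a list is given; subgroups are described by counts and medians. Set membership follows shared ratios of values under 0.3 FPKM, rounded to 5 decimals.

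Loci, transcript length, GC content and proteins came from GENCODE 29 (GRCh38) by symbol, with all 200 members and 96.5% of tested genes matched, using the transcript of longest coding sequence. A finger was counted as cysteines 2 to 4 residues apart, 12 residues, and histidines 3 to 5 apart. Promoters are from RefSeq. Named were AHNAK, the 10 members of highest mean, the 8 of smallest p without overlap in each direction, the 4 with the most opposite sets, the last member by rank and the symbol after it, a fixed set by role, and TRIM28, SETDB1, CBX1, CBX3, CBX5 and the 3 other partners of smallest p; other names were chosen after their values were seen. Alternatives covered pseudocount, filter, scaling, variance model, weights, a replicate block, a set term, each set alone, GC content and length, each library left out, and members chosen by the control mean or the mean of the group means.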

Additional observations from a re-analysis of the deposited data

How the results depend on the processing

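Limma called 0 members in every fit run except that with array weights, which called 21 (15 higher, 7 of them with the KRAB pattern, and 6 lower); these weights were 3.98 for knockdown replicate 2 and 0.257 for knockdown replicate 3. Over all genes the count was 1 with a pseudocount of 1, without a trend, with robust eBayes and at adjusted p under 0.1, then 1428 with array weights, 121 within set A and 0 to 9 with 1 library left out (9 without control replicate 1). Members at an unadjusted p under 0.05 numbered 7 at a mean of at least 5 FPKM, 73 with array weights, 11 with the replicate block, 8 with the set term, 5 within set A, 35 after the GC content and length correction, and 5 to 29 with 1 library left out (5 without control replicate 1, 6 without control replicate 2 and 10 without knockdown replicate 2). At a mean of at least 5 FPKM, where 102 members and 22 KRAB members are left, 47 and 14 were higher. The median over members was 0.17 within set B, where there is 1 library per group and no test. The KRAB count was added after the data had been seen, as were its alternatives and the choice of members by other means. It was 53 to 64 of 74 with 1 library left out.

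Replicate numbers 1 and 2 are shared by both groups, but nothing in the labels ties them together. Deviations from group means correlated over genes at -0.064 for the replicate 1 pair and -0.578 for the replicate 2 pair, which cannot settle the pairing, since the deviations of 2 controls mirror each other. Same-numbered libraries do fall in the same set (A for replicate 1, B for replicate 2), with knockdown replicate 3 also in A. With fewer than 3 pairs the numbers were not taken as pairs; the block lowered members at unadjusted p under 0.05 to 11.

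Of 1223 values of 62 named genes under the alternatives, 1125 kept direction and side of the threshold, 19 newly passed, all with array weights, and 79 changed sign, all of genes not called; the cause was not tested. Those that changed sign follow with their log2 differences. After rescaling to the same FPKM sum, these were ZNF385A (-0.05) and ZNF395 (-0.03). After quantile normalization, these were ZNF385A (-0.03) and SETDB1 (0.01). With array weights, these were ZNF385A (-0.03), ZNF783 (0.26), ZNF106 (0.10), TRIM28 (0.06) and SETDB1 (0.06). Within set B, these were ZNF385A (-0.21), ZNF395 (-0.06), ZNF783 (0.64), ZNF106 (0.34), ZNF330 (0.07), TRIM28 (0.20) and SETDB1 (0.11). Within set A, these were ZNF219 (-0.04), ZNF488 (0.09), ZNF768 (0.07), ZNF121 (-0.57), ZNF496 (-0.38), ZNF516 (-0.10), ZNF148 (-0.11), ZNF281 (-0.17), ZNF592 (-0.20), ZNF346 (-0.06), CBX3 (0.26) and CBX5 (0.02). With the replicate block, these were ZNF488 (0.04), ZNF768 (0.00), ZNF783 (0.19), ZNF512B (0.00), ZNF106 (0.01), TRIM28 (0.13) and SETDB1 (0.05). After the GC content and length correction, these were ZNF768 (0.05), ZNF783 (0.08), ZNF512B (0.04), TRIM28 (0.07), SETDB1 (0.03) and CBX5 (0.02). After centring on the median of all genes, these were ZNF783 (0.00), ZNF330 (0.00), SETDB1 (0.01), CBX3 (0.02) and CBX5 (0.01). With the set term, these were SETDB1 (0.00). With a pseudocount of 1, these were CBX3 (0.00). With 1 library left out, the ranges were ZNF385A from -0.16 to 0.17, ZNF488 from -0.20 to 0.06, ZNF768 from -0.14 to 0.03, ZNF395 from -0.03 to 0.08, ZNF121 from -0.24 to 1.05, ZNF783 from -0.32 to 0.29, ZNF496 from -0.21 to 0.39, ZNF148 from -0.04 to 0.16, ZNF281 from -0.07 to 0.34, ZNF592 from -0.09 to 0.20, ZNF512B from -0.25 to 0.00, ZNF106 from -0.26 to 0.13, ZNF330 from -0.08 to 0.06, TRIM28 from -0.18 to 0.13, SETDB1 from -0.05 to 0.05, CBX3 from -0.40 to 0.29 and CBX5 from -0.02 to 0.02. The unknown read depth sets a limit for low members that cannot be stated as a count.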
